A study of Homo sapiens with 23 samples.

Results

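PCDH7, GDA, MB, PROM2, HKDC1, DPP4, CYP4F11 and SLPI are 8 of the 28105 genes with a row in the RNA-seq tables, and they were picked because their transcripts were nearly lost in BAP1 knockout HCT116 cells. In the knockout each stood between 0% (PCDH7) and 6.43% (CYP4F11) of its mean in the control cells. The WT cells did not carry all of these genes at the level of the control. PCDH7, GDA and CYP4F11 were high in WT, PROM2 and DPP4 were intermediate, and MB, HKDC1 and SLPI were low. WT is called high where both of its libraries lay at or above 50% of the control mean, low where both lay below 25% of it, and intermediate otherwise. For each gene the transcript row with the highest mean read count was used.

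BAP1 is a nuclear deubiquitinase that takes ubiquitin off histone H2A, and it works in a complex with ASXL proteins. MLL4, the product of KMT2D, is a histone methyltransferase that places H3K4me1, a mark of enhancers. Loss of either can lower transcription of genes whose enhancers or promoters depend on it. The 8 genes belong to no single pathway. PCDH7 and PROM2 encode membrane proteins, a protocadherin of cell adhesion and a prominin of membrane protrusions. GDA, HKDC1 and CYP4F11 encode enzymes, a guanine deaminase, a hexokinase and a fatty acid omega-hydroxylase. DPP4 is a peptidase of the apical surface of intestinal epithelium, SLPI a secreted inhibitor of serine proteases at mucosal surfaces, and MB is myoglobin, the oxygen-binding protein of muscle.

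The cells were HCT116, a human colorectal cancer line, grown in McCoy's 5A medium with serum. The treatment text in the labels concerns cells for Western blot and ChIP-seq. The series asked how BAP1 and MLL4 depend on each other at the genome, and 8 of its 23 samples are RNA-seq libraries of polyadenylated RNA, in 4 groups of 2: WT, MLL4 KO, control and BAP1 KO. The genotype label of the control cells reads WT too. The names of the control and BAP1 KO tables carry the term osTir1, a plant F-box protein used for induced protein degradation, and those of WT and MLL4 KO do not. The same tables of control and BAP1 KO name STAR counting on exons and the others name no method. A difference of control or BAP1 KO from WT therefore cannot be told apart from cell line background or processing. The names also carry differing numbers, which may mark clones, and nothing says that the libraries of a group came from separate cultures. The p-values below then measure only the spread between these libraries.

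Counts summed over genes were 24.8 to 42.2 M per library (M, 1e6). Transcript levels of the knocked-out genes do not check the labels: KMT2D transcripts were at 280 and 406 CPM in MLL4 KO against 309 and 371 CPM in WT, and BAP1 transcripts were at 67.4 and 57.4 CPM in BAP1 KO against 56.7 and 62.1 CPM in control. Of 9 colorectal epithelial markers CDX1 had no read in any library and 8 were tested. Their summed level was 3650 to 3690 CPM in WT, 5350 to 5370 CPM in MLL4 KO, 5530 to 5540 CPM in control and 2900 to 3390 CPM in BAP1 KO. KRT8, KRT18 and KRT19 made up most of this sum. In BAP1 KO against control 6 of the markers fell, among them EPCAM and CDH1, KRT20 rose and VIL1 did not pass. The log2 differences of those that fell ran from -0.68 (KRT19) to -2.27 (CDH1), beside -3.97 for CYP4F11, the least lowered of the 8 genes. In MLL4 KO against WT 3 markers rose and 4 did not pass. EPCAM fell there, from a mean of 248 CPM to 114 CPM, although the sum was higher. The markers thus gave a mixed pattern, and their part in the results was not tested. The leukocyte markers summed to 0.843 CPM at most and the endothelial ones to 1.54 CPM at most. Of 5 fibroblast markers DCN and LUM had no read in any library, and COL1A1 was at 25.5 to 54.9 CPM.

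The promoters of PCDH7, GDA, HKDC1 and DPP4 are shown because they span the range from few to many CpG dinucleotides among genes that were all near 0 in BAP1 KO. Each run is the 250 bases before a transcription start of the RefSeq promoter table (hg38), 5′ to 3′ along the gene's strand, in lower case with each CpG in capitals. PCDH7 lies on the plus strand (chr4:30720119-30720368), GDA on the plus strand (chr9:72149190-72149439), HKDC1 on the plus strand (chr10:69220082-69220331) and DPP4 on the minus strand (chr2:162074216-162074465). The GDA start listed there lies inside the gene, which begins at position 72114608.
PCDH7: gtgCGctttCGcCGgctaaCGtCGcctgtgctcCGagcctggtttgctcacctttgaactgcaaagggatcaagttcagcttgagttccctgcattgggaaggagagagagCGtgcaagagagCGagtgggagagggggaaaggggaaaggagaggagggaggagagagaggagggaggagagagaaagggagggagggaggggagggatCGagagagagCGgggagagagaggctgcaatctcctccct
GDA: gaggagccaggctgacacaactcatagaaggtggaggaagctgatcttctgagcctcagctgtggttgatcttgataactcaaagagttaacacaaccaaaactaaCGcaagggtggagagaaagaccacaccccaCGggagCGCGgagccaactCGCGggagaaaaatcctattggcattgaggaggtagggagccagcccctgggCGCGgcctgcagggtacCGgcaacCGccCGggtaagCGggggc
HKDC1: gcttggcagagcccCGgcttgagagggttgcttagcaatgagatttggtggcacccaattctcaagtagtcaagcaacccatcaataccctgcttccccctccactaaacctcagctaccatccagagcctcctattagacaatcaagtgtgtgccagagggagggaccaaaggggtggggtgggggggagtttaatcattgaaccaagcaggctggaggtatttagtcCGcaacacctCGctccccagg
DPP4: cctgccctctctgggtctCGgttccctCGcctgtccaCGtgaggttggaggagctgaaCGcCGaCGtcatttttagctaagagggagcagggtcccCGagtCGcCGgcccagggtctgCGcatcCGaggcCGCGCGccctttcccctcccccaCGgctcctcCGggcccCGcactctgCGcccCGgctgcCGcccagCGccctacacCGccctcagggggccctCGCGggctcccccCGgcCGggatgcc

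The PCDH7 run held 10 CpG and that of GDA 12, against 3 for HKDC1 and 26 for DPP4. In bulk RNA, fewer cells that express a gene and less RNA per cell cannot be told apart, and this holds for every level that follows. Levels within a gene are given as CPM, counts per 1e6 counts after TMM scaling, and levels between genes as RPKM, which also divides by transcript length.

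PCDH7 (NM_001173523, chr4:30720369-31146800) had no read in either BAP1 KO library. The control libraries stood at 59.9 and 59.6 CPM, those of WT at 81.9 and 76.1 CPM and those of MLL4 KO at 98.7 and 107 CPM. WT was therefore high, at 132% of the control mean. With 3 counts put in each knockout library as a floor, 0.101 CPM on average, PCDH7 was at least 589-fold lower in BAP1 KO than in control and at least 780-fold lower than in WT. The floor covers counting error only. The WT and MLL4 KO libraries did not overlap.

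PROM2 (NM_001165978, chr2:95274449-95291302) had 0 reads in BAP1 KO replicate 1 and 14 reads, or 0.499 CPM, in replicate 2. It was at 14.3 and 13.5 CPM in control, with WT at 7.68 and 4.03 CPM and MLL4 KO at 2.16 and 1.72 CPM. WT was intermediate, at 42.1% of the control mean, and the 4 groups did not overlap. The control mean exceeded that of BAP1 KO 58.7-fold (95% interval of the counts 34.8 to 108, covering counting error only). The fitted log2 difference between BAP1 KO and control was -5.85 ± 0.59 (SE). It was -7.33 with limma-voom and -4.79 without BAP1 KO replicate 1, and without replicate 2 no read was left in BAP1 KO.

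GDA (NM_001242506, chr9:72114608-72259869) had the second highest length-scaled level of the 8 in control, 9.48 and 10.0 RPKM. In CPM the control libraries held 67.5 and 70.7, those of WT 52.8 and 59.7 and those of MLL4 KO 45.4 and 67.8. In BAP1 KO 28 and 47 reads remained, 0.893 and 1.67 CPM. WT was high, at 81.4% of the control mean, and BAP1 KO lay below all other libraries. The control mean was 55.0-fold that of BAP1 KO (43.8 to 70.1), and the fitted log2 difference was -5.76 ± 0.29 (SE).

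CYP4F11 (NM_021187, chr19:15912377-15934867) was lowered least of the 8. The control libraries held 24.2 and 24.6 CPM and the WT libraries 22.3 and 25.8 CPM. WT was thus high, at 98.3% of the control mean. BAP1 KO held 1.15 and 1.99 CPM, from 36 and 56 reads, and MLL4 KO held 50.2 and 55.4 CPM, so that the knockouts lay on opposite sides of their own reference libraries. The control mean was 15.8-fold that of BAP1 KO (12.8 to 19.7), a fitted log2 difference of -3.97 ± 0.23 (SE). CYP4F11 has close paralogs next to it on chromosome 19, and the sources used here do not give how reads shared between them were counted.

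HKDC1 (NM_025130, chr10:69220332-69267552) was low in WT. The control libraries held 34.8 and 30.6 CPM, those of WT 1.28 and 0.875 CPM and those of BAP1 KO 0.67 and 0.926 CPM. MLL4 KO held 0.615 CPM in replicate 1 and 3.22 CPM in replicate 2. Control alone stood apart, and the BAP1 KO and WT libraries overlapped. The WT mean was 3.29% of the control mean, and the control mean was 40.8-fold that of BAP1 KO (30.6 to 55.7) and 30.6-fold that of WT (23.7 to 40.1). The lncRNA gene LOC101928994 overlaps HKDC1, and without a stated strand setting reads of the overlap cannot be assigned.

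DPP4 (NR_166822, a row for a non-coding transcript of the gene, chr2:161992245-162074215) was intermediate in WT, at 51.1% of the control mean. It was at 11.3 and 9.82 CPM in control, and the WT libraries lay apart, at 7.79 CPM in replicate 1 and 3 CPM in replicate 2. BAP1 KO held 12 and 2 reads, 0.383 and 0.0712 CPM, below every other library, while MLL4 KO held 8.35 and 8.58 CPM. The control mean was 44.2-fold that of BAP1 KO (26.2 to 81.3), and the fitted log2 difference was -5.46 ± 0.62 (SE). It was -7.13 without BAP1 KO replicate 1 and -4.77 without replicate 2.

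MB (NM_001382809, chr22:35606764-35623354) was low in WT. The control libraries held 8.66 and 7.64 CPM and those of WT 0.349 and 0.0625 CPM, from 9 and 2 reads. BAP1 KO held 0.0638 and 0.142 CPM, from 2 and 4 reads, and MLL4 KO 0.273 and 0.331 CPM. Control alone stood apart, and the remaining 6 libraries lay at 0.349 CPM or less. The control mean was 79.6-fold that of BAP1 KO (36.3 to 218) and 42.3-fold that of WT (23.4 to 85.2). The fitted log2 difference between BAP1 KO and control was -6.27 ± 0.47 (SE), and -6.91 without BAP1 KO replicate 2. Of 7 muscle markers 6 were tested, 1 rose in BAP1 KO against control (TNNT1) and none fell. MYH7 had no more than 0.0625 CPM, and MYL2, ACTA1 and CKM stood at 0.637 CPM or lower. MYL2 held 0.313 and 0.205 CPM in control but 0 and 0.0712 CPM in BAP1 KO, a difference that did not pass. TNNI1 was highest in control as MB was, at 5.29 and 4.79 CPM beside 2.33 and 1.59 CPM for WT and 4.24 and 4.67 CPM for BAP1 KO. DES lay between 0.798 and 4.19 CPM over the 8 libraries. TNNT1 held 93.8 and 93.4 CPM in the control libraries and 143 and 147 CPM in those of BAP1 KO.

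SLPI (NM_003064, chr20:45252239-45254564) was low in WT as well. It was at 8.38 and 9.9 CPM in control, which at a transcript of 596 bases gave the highest length-scaled level of the 8, 10.7 and 12.8 RPKM. WT held 0.349 and 0.0625 CPM, BAP1 KO 0.255 and 0.142 CPM from 8 and 4 reads, and MLL4 KO 0.478 and 1.08 CPM. Control again stood apart, with BAP1 KO and WT overlapping. The control mean was 46-fold that of BAP1 KO (26.2 to 89.6) and 48.8-fold that of WT (27.1 to 98.4).

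**Figure D1:**
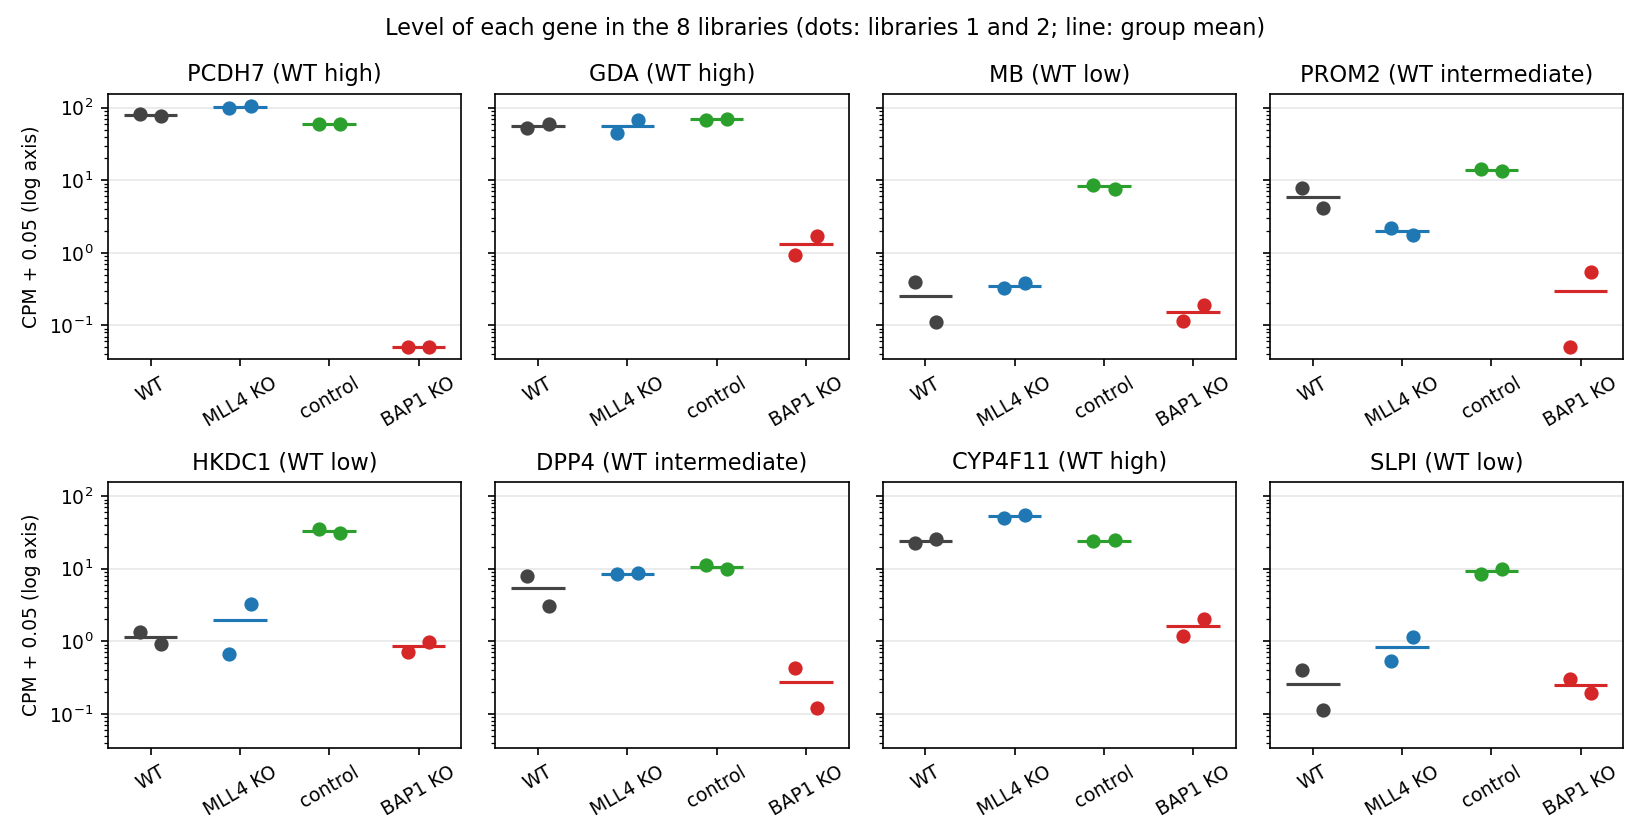
Level of each gene in the 8 libraries, as CPM plus 0.05 on a log axis; dots are libraries and lines are group means. For MB, HKDC1 and SLPI the control libraries lie above the other 6. For PCDH7, GDA, PROM2, DPP4 and CYP4F11 the BAP1 KO libraries lie below the other 6.

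Ordered by their control mean RPKM, the genes ran from SLPI (11.7) over GDA (9.76), HKDC1 (6.84), CYP4F11 (5.5), PCDH7 (5.2) and MB (4.84) to PROM2 (2.25) and DPP4 (2.12). The control libraries of CYP4F11 (5.42 and 5.57) lay above those of PCDH7 (5.18 and 5.22), while those of MB (5.11 and 4.56) and PCDH7 did not overlap either and lay close. The libraries of PROM2 and DPP4 overlapped. In WT the order differed, with GDA (8.32), PCDH7 (7.22) and CYP4F11 (5.66) first and the other 5 genes at 1.15 RPKM or less.

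Setting BAP1 KO beside WT, which the genes were not picked on but which shares the knockout libraries with their choice, gave a division of the 8. Effects of the knockout cannot be told apart here from cell line background or processing. The intervals cover counting error only. BAP1 KO lay below both WT libraries for PCDH7, GDA, PROM2, DPP4 and CYP4F11. The WT mean was 44.9-fold that of BAP1 KO for GDA (35.7 to 57.2), 24-fold for PROM2 (14.1 to 44.4), 21.8-fold for DPP4 (12.8 to 40.4) and 15.6-fold for CYP4F11 (12.7 to 19.5). For the 3 genes low in WT the counting intervals of this ratio held equality: 1.88 for MB (0.639 to 6.21), 1.33 for HKDC1 (0.897 to 2) and 0.942 for SLPI (0.377 to 2.33). For these 3 the term nearly silenced therefore holds against the control, whose level WT did not share.

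The difference between BAP1 KO and control chose these genes, so it is given with no test. Over all 16831 genes tested, edgeR's quasi-likelihood test placed 22.4% past an adjusted p of 0.05 in this comparison, 12.1% higher and 10.4% lower, and the median log2 difference was 0.01. The median of the 8 was -5.62. All 8 passed the filter on low counts, and MB, HKDC1 and SLPI had most of their reads in control.

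MLL4 KO against WT was not used to pick the genes, and in it the 8 went different ways. CYP4F11 rose and PROM2 fell, while the other 6 did not pass an adjusted p of 0.05. That makes 25% of the 8, beside 19.1% of all genes tested (9.13% higher, 10.0% lower), a share of so few genes that lies near the background. The median of the 8 was 0.66 on the log2 scale, beside 0.004 for all genes tested. The adjusted p of edgeR's quasi-likelihood test runs over all genes tested in what follows.

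CYP4F11 rose from 24.0 ± 2.49 CPM in WT to 52.8 ± 3.62 CPM in MLL4 KO (SD, n = 2), which is 1.13 ± 0.17 on the log2 scale (SE; adjusted p = 0.00822 by edgeR). Both knockout libraries lay above both WT libraries. With the 4 libraries of the comparison alone adjusted p was 0.0523, and in the other 20 alternatives the call was kept. The omega-hydroxylase gene thus stood at 220% of WT in MLL4 KO and at 6.54% of WT in BAP1 KO.

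PROM2 fell from 5.85 ± 2.58 to 1.94 ± 0.315 CPM (SD, n = 2), which is -1.56 ± 0.43 on the log2 scale (SE; adjusted p = 0.0361 by edgeR). The groups did not overlap, and MLL4 KO stood at 33.1% of WT. The call was lost in 12 of 21 alternatives, with adjusted p reaching 0.372 with DESeq2. Adjusted p was 0.0985 without WT replicate 1, 0.0731 and 0.156 without MLL4 KO replicate 1 and replicate 2, and 0.0813 and 0.0775 without control replicate 1 and replicate 2. PROM2 was the member of the 8 with lower transcript in both knockouts beside their own references.

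PCDH7 went from a WT mean of 79.0 ± 4.11 CPM to 103 ± 5.98 CPM (SD, n = 2), a log2 difference of 0.38 ± 0.12 that did not pass (adjusted p = 0.0538 by edgeR). It passed in 5 of 21 alternatives, at 0.0361 without WT replicate 1. DPP4, at 0.68 ± 0.38 (adjusted p = 0.227), passed without WT replicate 1 at 0.00824, since WT replicate 1 was at the level of MLL4 KO and WT replicate 2 below it. GDA differed by 0.01 ± 0.21 (adjusted p = 0.989), and its MLL4 KO libraries lay on either side of those of WT.

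The genes low in WT gave wide errors. SLPI differed by 1.95 ± 0.74 (adjusted p = 0.0915 by edgeR), with both MLL4 KO libraries above WT, and passed with DESeq2 (0.0194), without WT replicate 1 (0.0406) and without MLL4 KO replicate 1 (0.0488). HKDC1 differed by 0.77 ± 0.69 (adjusted p = 0.457), a value that MLL4 KO replicate 2 carried: it was 1.6 (0.021) without MLL4 KO replicate 1 and -0.78 without replicate 2. MB differed by 0.63 ± 0.75 (adjusted p = 0.573), from 9 and 2 reads in WT and 12 and 11 in MLL4 KO. A miss at this depth does not show that these genes were alike in WT and MLL4 KO.

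**Figure D2:**
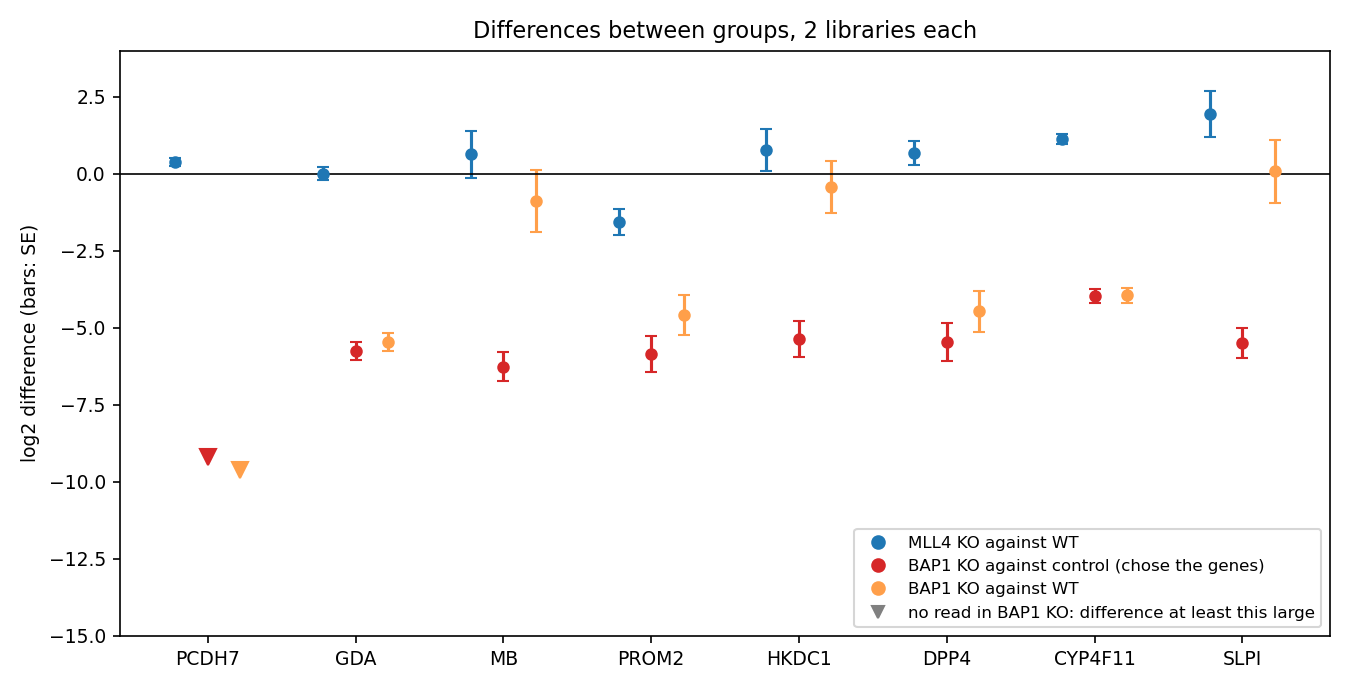
Fitted log2 differences with SE for the 8 genes between groups of 2 libraries; triangles mark PCDH7, with no read in BAP1 KO, at the smallest difference that a floor of 3 counts per library allows. BAP1 KO lies far below control for each gene, while against WT MB, HKDC1 and SLPI lie near 0.

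The PCDH7 rows of the tables held a further difference between groups. How reads were assigned to isoform rows is not stated. The rows NM_001173523 (8773 bases) and NM_002589 (6437 bases) differed widely in reads. NM_002589 held 7.57% of the reads of NM_001173523 in WT replicate 1 (exact binomial 95% interval 6.48 to 8.78), 9.89% in WT replicate 2 (8.74 to 11.1), and 9.32% (8.47 to 10.2) and 9.81% (8.85 to 10.8) in MLL4 KO. In control it held 1.24% (0.75 to 1.93) and 1.12% (0.732 to 1.64). The control libraries thus lay below WT and MLL4 KO with intervals that did not overlap, although PCDH7 as a whole was at 75.8% of the WT level there. The intervals cover counting error only and treat the reads of the shorter row as part of those of the longer, which was not tested. BAP1 KO had no read in either row. For GDA, with 8 rows between 1829 and 5408 bases, the shorter row NM_001242505 held 44.8% and 45.9% of the reads of the longest in WT, 34.7% and 37.2% in control, and 25% and 36.2% of the few reads in BAP1 KO.

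**Figure D3:**
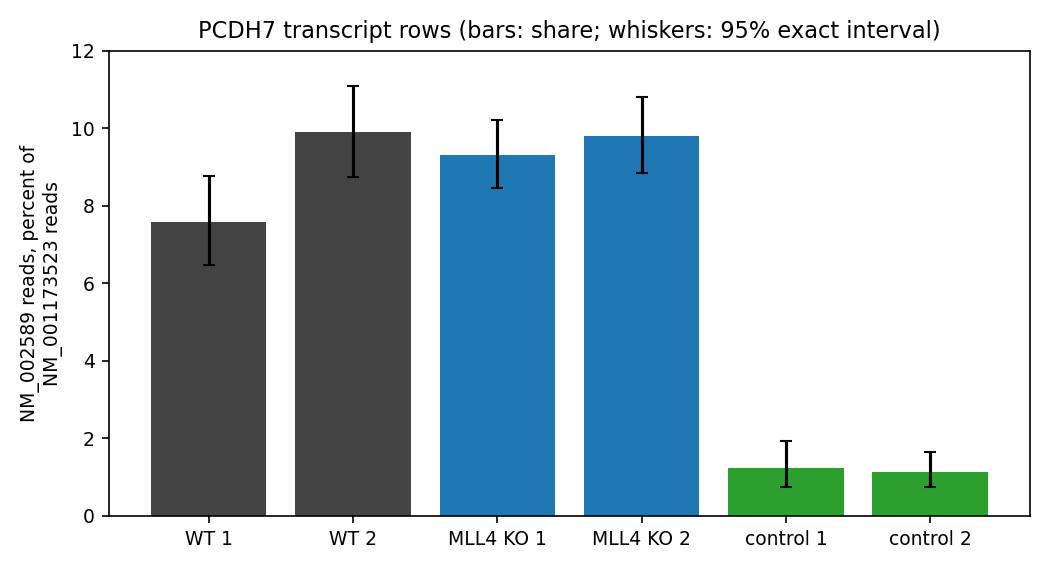
Reads of the PCDH7 row NM_002589 as a percentage of those of NM_001173523 in each library with PCDH7 reads; whiskers are exact 95% binomial intervals. The control libraries, at 1.24% and 1.12%, lie below the 4 libraries of WT and MLL4 KO, at 7.57% to 9.89%.

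The 8 genes lie on 7 chromosomes, so neighbours were read for each of them, the 3 nearest genes of the tables on each side. Of these 48 neighbours 26 had enough reads to test. In BAP1 KO against control 7 fell, none rose and 19 did not pass, which is 26.9% lower beside 10.4% of all genes tested. Their median log2 difference was -0.12. In MLL4 KO against WT 3 rose (APOL6, ZNF514 and OR10H1), AHCTF1P1 fell and 22 did not pass. Of the 7 lower in BAP1 KO, UCA1 and SUPV3L1 were near the control level in WT. Their WT means were 77.8 and 49.5 CPM, beside 69.5 and 52.5 CPM in control. WT means of ZFAND5 (118 CPM), TSPAN15 (13.8), SDC4 (84.5), LINC01504 (0.144) and TMC1 (0.128) lay below control. In control these genes stood at 214, 27.4, 304, 0.938 and 0.988 CPM, a level that WT did not share.

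The neighbours of GDA that fell lie on its side of higher coordinates. ZFAND5, a zinc finger protein that binds ubiquitin, fell from 214 to 117 CPM (log2 -0.87 ± 0.15, adjusted p = 0.00324 by edgeR). Its WT mean was 118 CPM, near that of BAP1 KO. TMC1, a channel subunit of hair cells 262 kb from GDA, held 0.823 and 1.15 CPM in control but 0 and 0.0356 CPM in BAP1 KO (adjusted p = 0.00139). It was at 0.194 CPM or less in WT and MLL4 KO. TMC1 thus passed the filter on low counts through control alone, and could hardly have come out higher in BAP1 KO. The lncRNA gene LINC01504, 45.6 kb from GDA, fell by 1.98 ± 0.52, but had adjusted p = 0.0826 to 0.148 without any 1 of the control or BAP1 KO libraries.

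Near CYP4F11, the lncRNA gene UCA1, 76.1 kb away, fell from 70.7 and 68.3 CPM in control to 13.9 and 22.5 CPM in BAP1 KO (log2 -1.93 ± 0.27, adjusted p = 0.00199 by edgeR). The paralog CYP4F2, 14.3 kb away, was between 0.41 and 1.1 CPM in the libraries of WT, control and BAP1 KO. Around HKDC1, SUPV3L1, which encodes a mitochondrial RNA helicase, fell by 0.86 ± 0.17, and TSPAN15, a tetraspanin gene, by 0.87 ± 0.24. HK1, another hexokinase gene 2.45 kb from HKDC1, did not pass, at 0.55 ± 0.2 (adjusted p = 0.0747). SUPV3L1 had 0.0584 and 0.0753 without control replicate 1 or BAP1 KO replicate 1, and TSPAN15 had 0.056 to 0.215 without any 1 of the control or BAP1 KO libraries.

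Next to SLPI, SDC4, a syndecan gene, fell by 0.96 ± 0.24 (adjusted p = 0.0235 by edgeR), and had 0.109 to 0.143 without control replicate 1, control replicate 2 or BAP1 KO replicate 1. None of the 10 tested neighbours of MB and PROM2 passed in BAP1 KO against control, and neither did the 2 of DPP4. The nearest gene to PCDH7 lies 24.3 kb away on 1 side and 1500 kb away on the other, and none of its 6 neighbours had enough reads to test. Among neighbours that changed in MLL4 KO, APOL6 had adjusted p up to 0.166 and ZNF514 up to 0.0618 when a library was left out, AHCTF1P1 had 0.0673 without MLL4 KO replicate 2, and OR10H1 had 0.0899 and 0.127 without WT replicate 2 or MLL4 KO replicate 2. The call of APOL6 was lost without WT replicate 2, any MLL4 KO library or any control library, and ZNF514 without WT replicate 2 or MLL4 KO replicate 2.

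**Figure D4:**
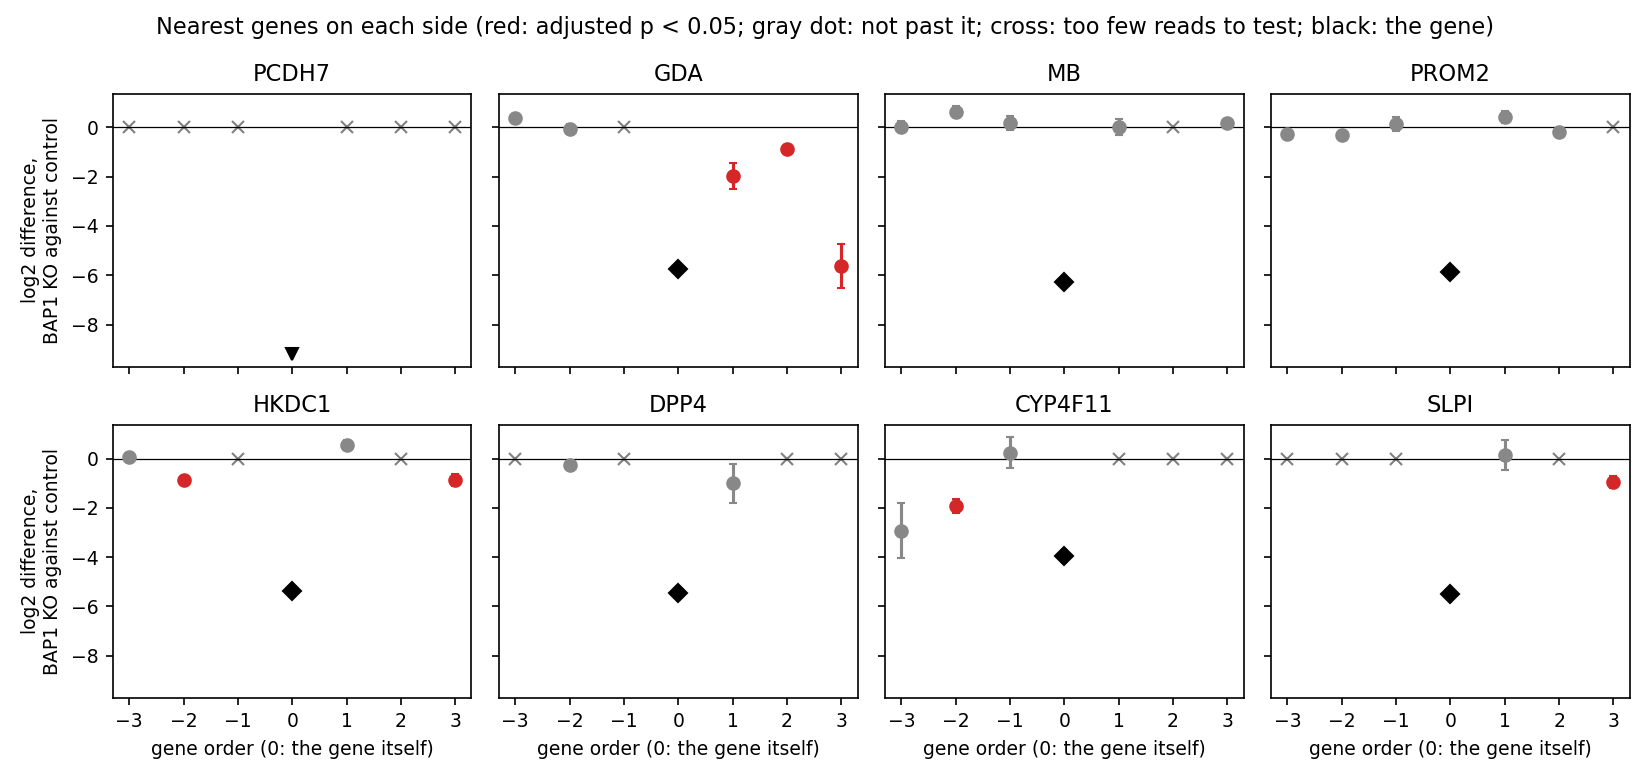
Log2 difference with SE, BAP1 KO against control, of the 3 nearest genes on each side of each of the 8 genes in gene order; a cross marks a gene with too few reads to test, drawn at 0. The lower neighbours of GDA lie on its right, and no tested neighbour of MB, PROM2 or DPP4 passed the test.

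Families and pathways of the 8 were read from lists that hold none of them. Each count reads beside the share of all genes tested that passed, in BAP1 KO 10.4% lower and 12.1% higher (median 0.01) and in MLL4 KO 10.0% lower and 9.13% higher (median 0.004). Of 5 tested members of the CYP4 family 3 rose in MLL4 KO, CYP4F3, CYP4F12 and CYP4F22, and none fell (median 1.39), beside 9.13% of all genes higher. CYP4F3 and CYP4F12 were low there, at means of 7.15 and 3.69 CPM. How reads shared between these paralogs and CYP4F11 were counted is not given, so the rises may not be separate. CYP4F3, an omega-hydroxylase of leukotriene B4, rose by 1.42 ± 0.27 (adjusted p = 0.0134 by edgeR, 0.0571 without WT replicate 2). CYP4F12 rose by 1.51 ± 0.37 and lost its call without WT replicate 2 or any 1 library of MLL4 KO or control (0.0588 to 0.13). CYP4F22 rose by 0.8 ± 0.19 and had 0.0586 to 0.115 without replicate 2 of WT or MLL4 KO or any 1 control library. CYP4F22 makes omega-hydroxy fatty acids of the skin barrier. In BAP1 KO against control it rose by 1.72 ± 0.24 (adjusted p = 0.00136 by edgeR), opposite to CYP4F11. Control was its lowest group, at 1.65 and 1.9 CPM, a level that WT did not share. BAP1 KO held 5.87 and 5.95 CPM and WT 8.1 and 6.47 CPM. None of the 5 passed as lower in BAP1 KO against control, with CYP4F3 at -0.99 ± 0.37 (adjusted p = 0.0858 by edgeR). The median was 0.24.

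Of 27 tested genes of purine metabolism, 7 fell in BAP1 KO and 1 rose (median -0.35). Of all genes tested 10.4% were lower and 12.1% higher. The list holds genes of salvage and breakdown, as GDA is, and also genes of purine synthesis. Of the latter, ATIC and GART were among those that fell (adjusted p = 0.0121 and 0.0372 by edgeR). The call of ATIC was lost in 3 of 21 alternatives. AMPD3, an AMP deaminase, fell from 26.6 and 26 CPM to 8.58 and 9.8 CPM (log2 -1.52 ± 0.2, adjusted p = 0.00108 by edgeR). DCK, deoxycytidine kinase, rose by 0.68 ± 0.17, and had 0.0761 to 0.192 without any 1 of the control or BAP1 KO libraries. In MLL4 KO 6 of the 27 fell, among them the synthesis genes PFAS and PAICS, and 1 rose (median -0.29). The call of PFAS (adjusted p = 0.0273 by edgeR) was lost in 5 of 21 alternatives. PAICS lay at the threshold, with an adjusted p by edgeR that rounds to 0.05. The riser was ADSS1, an adenylosuccinate synthase, at 2.33 ± 0.37 (adjusted p = 0.00933 by edgeR).

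Of 3 tested hexokinase genes, HK2 fell in BAP1 KO, from 101 and 95.8 CPM to 22.5 and 36.4 CPM (log2 -1.74 ± 0.24, adjusted p = 0.00192 by edgeR), and none passed in MLL4 KO. HK2 was high in WT, at 85.9 and 102 CPM, where HKDC1 was low. Of 11 tested genes of antiproteases and mucosal defence, 5 fell in BAP1 KO and none rose (median -0.59), beside 10.4% of all genes lower. Not all of the list is secreted as SLPI is, and SERPINB1 and SERPINB5, serpins found mainly inside cells, were among those that fell. LCN2, a siderophore-binding protein, was at 152 and 146 CPM in control, 0.383 and 0.285 CPM in BAP1 KO, and 1.36 and 0.156 CPM in WT (adjusted p = 4.9e-05 for BAP1 KO against control). SERPINB1, an inhibitor of neutrophil proteases, fell from 134 and 125 to 38.8 and 61.3 CPM (adjusted p = 0.00436), and was at 43.4 and 35.7 CPM in WT. PI3, a close relative of SLPI, had 0.103 CPM at most. In MLL4 KO 2 of the 11 rose, CST6 and WFDC2 (median 0.27), of which CST6 had 0.0613 to 0.16 without replicate 2 of WT or MLL4 KO or any 1 control library, and WFDC2 had 0.0506 to 0.23 when any 1 library other than WT replicate 1 was left out.

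Of 15 tested brush border and apical genes, the setting of DPP4, 1 fell in BAP1 KO and 2 rose (median 0.17), which lies near the 10.4% lower and 12.1% higher of all genes. The one that fell was EZR, the linker of membrane and actin ezrin, by 1.25 ± 0.19 (adjusted p = 0.00206 by edgeR), and 2 of the 15 rose in MLL4 KO (median 0.44). Of 6 tested genes of the dipeptidyl peptidase family 1 rose in BAP1 KO (median 0.06) and 1 fell in MLL4 KO (median -0.18). FAP, the closest paralog of DPP4, had 0.0392 CPM at most. Of 4 prominin and tweety genes 1 fell, 1 rose and 2 did not pass in BAP1 KO (median 0.35), and none passed in MLL4 KO (median 0.16). The gene that fell was PROM1, the paralog of PROM2, from 37.5 and 35.6 to 26.7 and 22.4 CPM (adjusted p = 0.0387 by edgeR). With 1 library left out its log2 difference ran from -0.705 to -0.453. The call was lost without any 1 of the control or BAP1 KO libraries. WT held 24.5 and 22.7 CPM, near BAP1 KO.

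Of 3 tested delta protocadherins, relatives of PCDH7, PCDH1 fell in BAP1 KO, from 109 and 107 to 58.1 and 65.4 CPM (adjusted p = 0.0315 by edgeR). With 1 library left out its log2 difference ran from -0.898 to -0.727. The call was lost without any 1 of the control or BAP1 KO libraries. In WT it was at 41.6 and 23.3 CPM, below BAP1 KO. PCDH12 rose in MLL4 KO by 1.38 ± 0.3, and had 0.0786 and 0.0926 without WT replicate 2 or MLL4 KO replicate 2. Of 6 tested globin genes, relatives of MB, 2 rose and none fell in each knockout, with medians of 1.06 in BAP1 KO and 0.91 in MLL4 KO. HBA1 and HBA2, which enter these medians, had near-equal levels, at 0.447 CPM or less in control and BAP1 KO. HBE1 rose in MLL4 KO by 1.44 ± 0.22 (adjusted p = 0.00855 by edgeR). HBG2 also rose there, by 0.91 ± 0.26 (adjusted p = 0.0371 by edgeR), and its call was lost in 7 of 21 alternatives. The genes that rose in BAP1 KO were HBG1 and HBG2, near-identical copies that may share reads. HBG1 had adjusted p = 0.0506 to 0.254 without any 1 of the control or BAP1 KO libraries, and HBG2 had 0.077 to 0.113 without any 1 control library or BAP1 KO replicate 2.

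Genes whose levels ran most like each of the 8 over the 8 libraries were read by Pearson's r of log2(CPM + 0.5), as a description, since the points share libraries and the groups set most of the spread. The nearest to PCDH7 was CAV1, caveolin 1 (r = 0.9933), and to GDA it was CAV2 (r = 0.9898). CAV1 held 155 and 151 CPM in the control libraries, 328 and 208 CPM in those of WT and 7.24 and 8.48 CPM in those of BAP1 KO. CAV2 held 147 and 153 CPM, 124 and 87.8 CPM and 8.3 and 11.1 CPM in the same groups. Both were high in WT, as were PCDH7 and GDA. The nearest to MB was LCN2 (r = 0.9957), to HKDC1 BTC, the growth factor betacellulin (r = 0.9969), and to SLPI AGTPBP1 (r = 0.9882). BTC was at 20.3 and 17.2 CPM in control and between 2.48 and 5.39 CPM in the other 6 libraries. GALNT12 was among the 3 nearest of both MB (r = 0.9892) and SLPI (r = 0.9834), with control at 122 and 129 CPM above the other 6 libraries. The nearest to PROM2 was MACC1 (r = 0.9903), which like PROM2 was lower in MLL4 KO, at 9.47 and 7.98 CPM, than in WT, at 18.1 and 16.4 CPM. The nearest to DPP4 was TFPI, an inhibitor of the tissue factor pathway (r = 0.9819), with 0.0638 and 0 CPM in BAP1 KO. ANK3, an ankyrin gene, was nearest to CYP4F11 (r = 0.9822) and second to PCDH7 (r = 0.9901), and PCDH7 was itself among the 3 nearest of CYP4F11 (r = 0.978).

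RefSeq lists 10 promoters for 7 of the 8 genes, and their ratio of observed to expected CpG ran from 0 to 0.79, over the 250 bases before the start. DPP4 (0.79) lay above 68.9% of the 35114 promoters of the table, whose median was 0.56. GDA (0.58) and PCDH7 (0.56) lay near that median, and HKDC1 (0.16), PROM2 (0.19), the 3 of MB (0.04 to 0.24) and the 2 of CYP4F11 (0 and 0.22) lay low in it.

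Fixed letter patterns were sought on both strands of the same windows, and none of the patterns holds another. The GC box GGGCGG was found in 3 of the 10, those of GDA, PROM2 and DPP4, and in 42.6% of all promoters. The E-box CACCTG was found in 2 (17.5% of all), the AP-1 pattern TGANTCA in 1 (6.57%) and the ETS pattern CGGAAG in 1 (16.5%). No member promoter held TATAAA (10.7% of all), the grainyhead-like ACCGGTT (0.627%), the TEAD pattern GGAATG (11.9%) or the CDX pattern TTTATG (9.64%). A match describes the letters of the window and is not a bound site, and a miss says only that those letters are not in it.

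**Figure D5:**
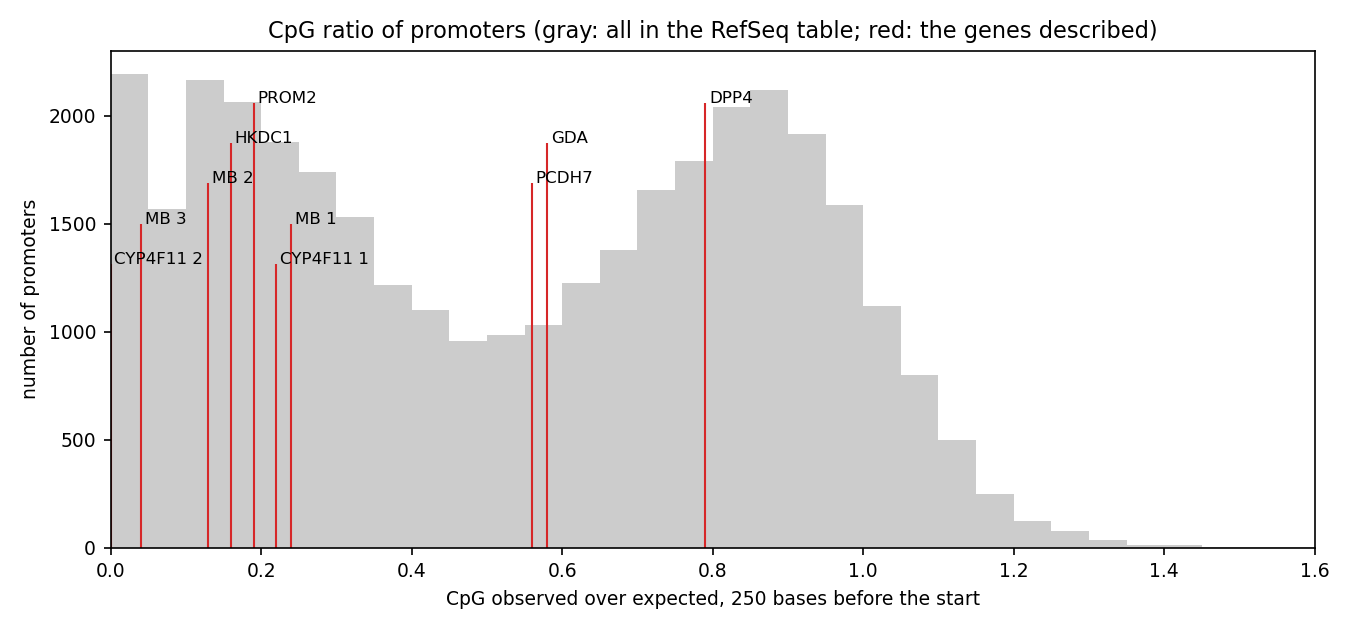
Number of RefSeq promoters by their ratio of observed to expected CpG in the 250 bases before the start (grey), with the 10 promoters of the genes described as red lines. The lines run from 0 to 0.79, below the upper peak of the distribution, and most lie at 0.24 or less. Numbers mark genes that have several promoters.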

How the data were processed

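Poly(A) RNA was purified from 1 µg of total RNA for each library, as the labels state. The 15 ChIP-seq samples were not analysed here. The deposited tables give each RefSeq transcript a read count, which the authors did not normalize, and an RPKM value, which the authors scaled to transcript length and library size. Dividing the count by RPKM gave 31.6 to 54.8 M reads (1e6) behind the RPKM values. The submitters' processing notes name hg38, bcl2fastq, Bowtie2, STAR and SICER 1.1 with no roles, and how reads were counted by strand is not given in these sources.

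Of 88819 rows, 605 had no symbol in the RefSeq table of GRCh38.p14 (0.23% to 0.252% of the counts per library) and were left out. The row with the highest mean count stood for each of 28105 genes. Counts were fitted in R 4.3.3 with edgeR 4.0.16: filterByExpr by group (16831 genes), TMM, 1 robust quasi-likelihood model over the 8 libraries, two-sided tests with Benjamini-Hochberg adjustment over all genes tested, and a threshold of 0.05. Each SE was obtained by dividing the log2 difference by the root of its F value. Scripts were tested on simulated data. Promoters come from RefSeq (hg38), and exact intervals from SciPy 1.17.1. Intervals and the floor of 3 counts cover counting error only.

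The genes and all lists were chosen with earlier results of these data known. Named beside the 8 genes are the targeted genes, the 3 nearest genes on each side where past the threshold, up to 4 genes per list past it with the closest paralogs, and the 3 genes most correlated with each. Other genes were named after their values were seen. As alternatives, scaling was done by upper quartile or RLE, and tests by limma-voom (limma 3.58.1) or DESeq2 1.42.0. Others were no filter, a stricter filter (at least 1 CPM in 4 libraries), a fit restricted to the 4 libraries compared, no robust step, the longest row, the sum of rows, a replicate block and leaving out each library. After the data were seen, the legacy quasi-dispersion and a crossed block were added.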

Additional observations from a re-analysis of the deposited data

How the results depend on the processing

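For MLL4 KO against WT, 3219 genes passed, and 65 passed in a fit on the 4 libraries of the comparison. Without 1 library the count ran from 492 (without MLL4 KO replicate 2) to 5300 (without WT replicate 1), with 677 without WT replicate 2 and 1072 and 1106 without control replicate 1 and replicate 2. Upper-quartile scaling gave 60.9% of the calls as higher, against 47.7% in the reported fit. For BAP1 KO against control, 3778 genes passed, and 6630 passed with 4 libraries. Without 1 library the count ran from 1091 (without control replicate 2) to 5024 (without WT replicate 1), with 1154 without control replicate 1 and 1360 and 2441 without BAP1 KO replicate 1 and replicate 2. A group left with 1 library is assumed to vary like the others, and the cause of these shifts was not tested.

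Of the 8 genes, 2 passed in MLL4 KO against WT. The count was 0 with 4 libraries, 1 with the legacy quasi-dispersion, 1 with the sum of transcript rows, 1 with the crossed block and 1 to 4 without 1 library. GDA changed sign at -0.009 (RLE scaling), -0.007 (DESeq2), -0.027 (limma-voom), -0.001 (no filter), -0.013 (replicate block), -0.023 (sum of rows) and from -0.309 to 0.268 without 1 library. MB ran from -0.223 to 2.19 and HKDC1 from -0.782 to 1.601 without 1 library. None of these 3 was called in the reported fit, and the cause was not tested. MB and SLPI had too few reads for the stricter filter.

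With the replicate number as a block, 2360 genes passed in MLL4 KO against WT, 3312 in BAP1 KO against control, and 2 of the 8. The numbers are not known to pair libraries: replicate differences correlated at r = -0.177 between WT and MLL4 KO and at 0.002 between control and BAP1 KO. A block with the numbers of MLL4 KO crossed gave 3367 and 3796 calls. Depth limits MB, SLPI and HKDC1 in WT, at 2 to 33 reads.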

Other observations

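Genes with large losses in BAP1 KO differed in their level in WT beyond the 8 as well. Over all genes tested, 69 had at least 5 CPM in control and were lower in BAP1 KO by 3 or more on the log2 scale, the 8 genes among them. By the same cuts on the control mean, WT was high for 25 of the 69, intermediate for 24 and low for 20. PCDH7 was the 1 gene of the 69 with no read in both BAP1 KO libraries. These counts are a description, since the fall and the control level chose the genes.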
